A study of Mus musculus with 6 samples.

Results

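The lysosome and autophagy genes described here are 43 of 44 listed genes that the array annotation named on a probe set of their own, out of 22180 genes measured; Optn was not analysed here. They were listed by function, with earlier results of these data known. The list covers 7 genes that start an autophagosome, 6 conjugation enzymes, 5 Atg8 family genes and 3 measured autophagy receptors. Also covered are 7 lysosomal proteases, 4 genes for other hydrolases and an activator, 3 membrane proteins and 8 subunits of the proton pump. Expression was measured on Mouse Gene 2.0 ST arrays in CD4+ T cells from spleens of wild-type C57BL/6 females about 8 weeks old. All cells had been stimulated for 24 h with antibodies to CD3 and CD28, each at 10 µg/mL, and were then kept for a further 24 h with 100 µM icilin, a synthetic cooling agent that opens the channels TRPM8 and TRPA1, or with its vehicle dimethyl sulfoxide (DMSO). There were 3 icilin and 3 vehicle arrays, made from cells of 3 mice that supplied both treatments. The vehicle group is therefore activated T cells in DMSO, and no unstimulated cells were measured.

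Autophagy encloses cytoplasm in a double membrane, the autophagosome, and delivers it to the lysosome. An initiation complex and a phosphoinositide kinase complex mark the site, conjugation enzymes then attach Atg8 proteins (LC3 and GABARAP) to lipid on the growing membrane, and receptors tie cargo to them. Lysosomes are kept acidic by the vacuolar proton pump, break cargo down with cathepsins and glycosidases, and are bounded by heavily glycosylated membrane proteins. Transcription factors of the MiT family, TFEB among them, drive many of these genes through the CLEAR element. In T cells, autophagy is known to increase on activation and to support survival and metabolism.

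Most of these genes, like most genes measured, kept their level within a narrow range under icilin. A few parts of the autophagy machinery moved by less than 1.5-fold. None of the 43 genes reached the study's limits, an adjusted p under 0.1 together with a change of 1.5-fold or more: limma called 0 and SAM called 0, against 1.40% and 1.52% of all genes. Before adjustment, 5 higher and 6 lower members had a limma p under 0.05, which is 25.6% of them, against 17.1% of all genes and 24.8% of the genes brighter than the median gene. With an adjusted p under 0.1 and no fold limit, which is what "rose", "fell" and "passed" mean below, 6 members passed. The lipid-binding effector gene Wipi1, the scramblase gene Atg9a, the Atg8 gene Map1lc3b and the receptor gene Calcoco1 fell, and the conjugating enzyme gene Atg3 and the glycosidase gene Hexa rose. Of all genes 3.00% fell and 2.27% rose. The 6 are 14.0% of the members, where 5.28% of all genes passed, and 9.02% of the genes brighter than the median gene, as 41 of the 43 members were. Because the list was made with earlier results known, the difference between these shares cannot be tested here. The median log2 fold change over the members was 0.02, and that over all genes 0.01. Individual changes ran from -0.51 to 0.37, with 24 above 0 and 19 below. The median size of change, sign set aside, was 0.09 for the members and 0.10 for all genes.

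**Figure D1:**
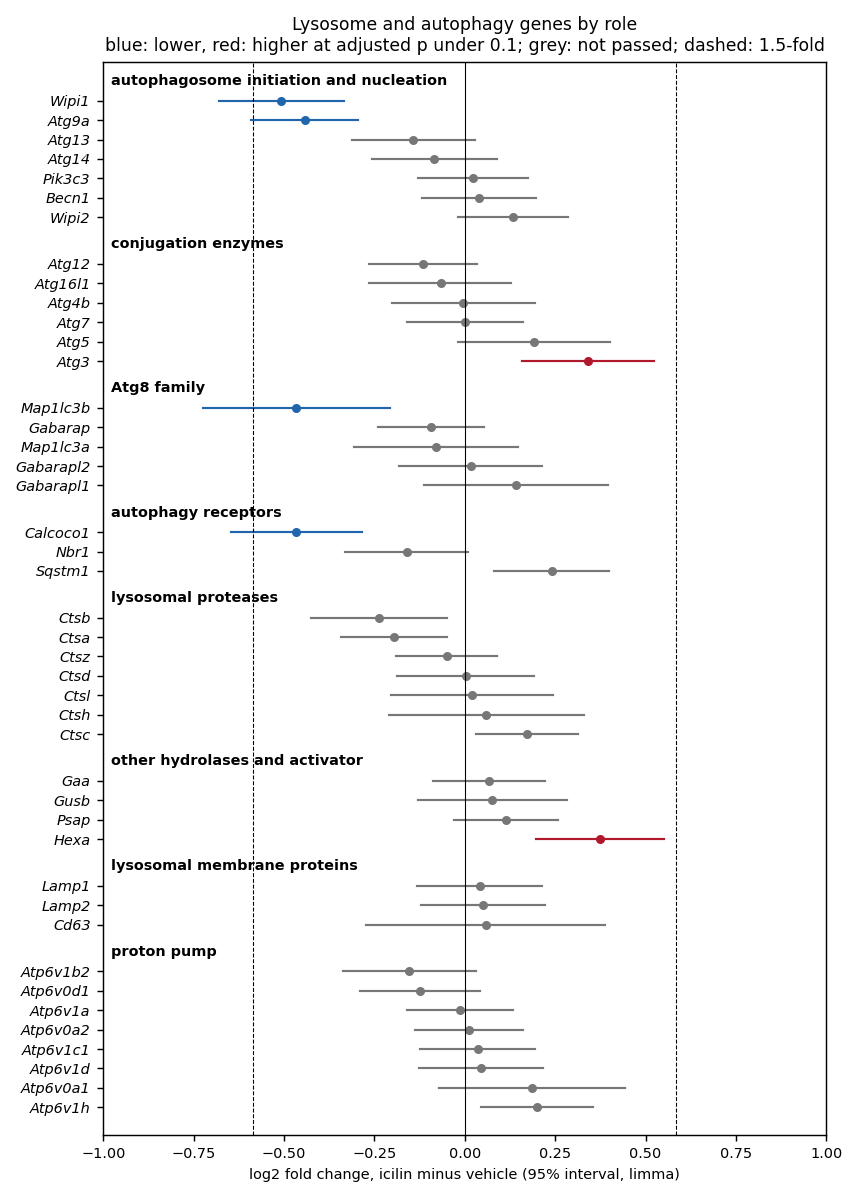
Log2 fold change (icilin minus vehicle, x axis) with its 95% interval from limma for each of the 43 genes, grouped by role; blue points fell and red points rose at an adjusted p under 0.1, grey points did not pass, and dashed lines mark 1.5-fold. The 6 coloured genes lie between -0.51 and 0.37, inside the dashed lines, and 3 of the 4 blue and no red point belong to membrane initiation or the receptors.

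The data bounded the changes as well. For 39 of the 43 members (90.7%) the whole 95% interval of the log2 fold change lay within 1.5-fold in either direction. It did so for 89.2% of all genes and for 10192 of the 11090 genes brighter than the median gene. The 4 exceptions among the members, whose intervals reached past 1.5-fold, were the 4 genes that fell. All 43 intervals lay within 2-fold. The 3 icilin arrays lay entirely above the 3 vehicle arrays in 7 of the 43 members and entirely below them in 12. Over all genes the shares were 13.6% above and 10.5% below. Of the 11090 genes brighter than the median gene, 2400 lay above and 1677 below. The groups thus did not overlap in 44.2% of members, against 24.1% of all genes and 36.8% of the genes brighter than the median gene. RNA was measured in bulk, so fewer cells with a transcript and less of it per cell cannot be told apart.

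**Figure D2:**
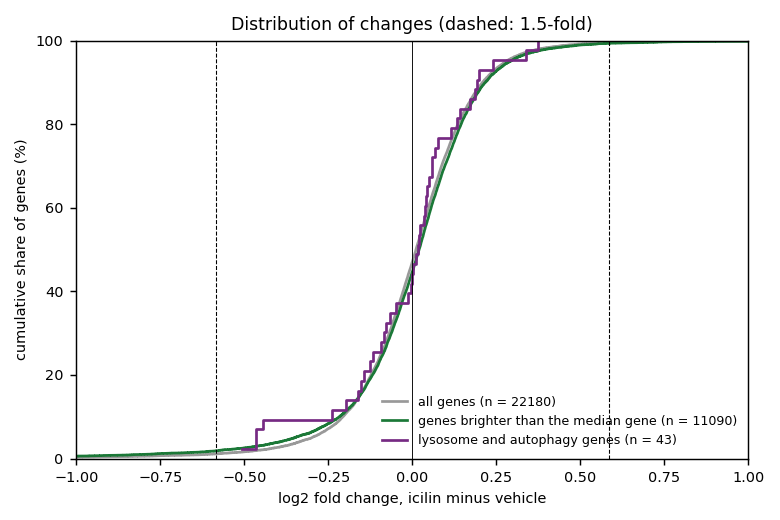
Cumulative share of genes (y axis, %) by log2 fold change, icilin minus vehicle (x axis), for all 22180 genes, the 11090 genes brighter than the median gene, and the 43 lysosome and autophagy genes; dashed lines mark 1.5-fold. The 3 curves cross 0 close together, with medians of 0.01, 0.02 and 0.02, and the step at the lower left of the purple curve is the 4 genes that fell.

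Because MiT factors act through the letters CACGTG with set flanks, the promoter windows of the members were searched. RefSeq windows (GRCm38.p6, from 250 bases before to 50 after the transcript start) matched 32 of the 43 members. The 8 letters TCACGTGA, the core of the CLEAR element, stood in 5 of these 32 (15.6%) and in 304 of 27025 genes with a window (1.12%). The shorter CACGTG, which lies within it, stood in 11 (34.4%) against 8.09%, and the full element of 10 letters in 0 of 32 against 0.370%. Each of these motifs reads the same on both strands, so 1 search covers both. The windows below are shown because they carry the motif in genes for a conjugation enzyme, proteases, proton pump subunits and a membrane protein; no Atg8 family or receptor gene with a window held any of the 3 motifs. Capitals mark TCACGTGA, and in Lamp1 each of its 4 copies of CACGTG.
Atg3, chr16:45158725-45158784, plus strand: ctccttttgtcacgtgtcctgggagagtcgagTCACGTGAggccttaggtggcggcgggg
Ctsa, chr2:164833725-164833784, plus strand: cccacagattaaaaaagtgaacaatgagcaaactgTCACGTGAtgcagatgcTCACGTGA
Ctsd, chr7:142387899-142387958, minus strand: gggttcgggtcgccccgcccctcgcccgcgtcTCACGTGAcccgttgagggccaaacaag
Atp6v0d1, chr8:105566061-105566120, minus strand: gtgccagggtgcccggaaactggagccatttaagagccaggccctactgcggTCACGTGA
Atp6v1a, chr16:44139364-44139423, minus strand: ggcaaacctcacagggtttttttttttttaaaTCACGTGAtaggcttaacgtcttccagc
Lamp1, chr8:13159095-13159160, plus strand: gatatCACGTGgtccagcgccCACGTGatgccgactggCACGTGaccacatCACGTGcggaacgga
The Atg3 window holds a further CACGTG with other flanks, left in lower case. Of the 5 genes with TCACGTGA, Atg3 rose (0.34), while Ctsa (-0.20), Atp6v0d1 (-0.12), Atp6v1a (-0.01) and Ctsd (0.00) did not pass. Lamp1, with 4 copies of the shorter motif, stood at 0.04. A match is a description of the letters in these windows and not of binding. Many of the listed genes are known to be driven through this element. The higher shares therefore describe the list and are not a result of the arrays.

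Among the genes that begin an autophagosome, Wipi1 and Atg9a fell and the other 5 did not pass. Atg9a encodes the membrane-spanning lipid scramblase carried by the vesicles that seed the autophagosome. Its log2 levels were 6.71, 6.74 and 6.77 on the vehicle arrays and 6.27, 6.26 and 6.36 on the icilin arrays. Every icilin array was below every vehicle array, and the change was -0.44 ± 0.06 (SE), or 1.36-fold lower (limma adjusted p = 0.0146). Wipi1, which encodes a protein that binds the phosphoinositide on the early membrane, stood at 5.09, 5.19 and 5.09 with vehicle and at 4.72, 4.58 and 4.55 with icilin. The groups again did not overlap, and the change of -0.51 ± 0.07 was the largest of any member (1.42-fold lower, adjusted p = 0.0156). Both calls held with each of the 6 arrays left out, between -0.47 and -0.43 for Atg9a and between -0.56 and -0.48 for Wipi1. The related gene Wipi2, which encodes the protein that recruits the conjugation complex, differed by 0.13 ± 0.06 with an interval of -0.02 to 0.29.

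The listed genes of the kinase complexes, which do not include the initiating kinase genes Ulk1 and Ulk2, did not pass. Atg13, which encodes the adaptor of the initiating kinase, read 8.24, 8.17 and 8.18 with vehicle and 7.95, 8.06 and 8.14 with icilin. The icilin arrays were the lower ones, but the change of -0.14 (interval -0.31 to 0.03) did not pass (adjusted p = 0.378). For the lipid kinase complex, the scaffold gene Becn1 (0.04), the catalytic subunit gene Pik3c3 (0.02) and the targeting subunit gene Atg14 (-0.08) had overlapping groups, with intervals inside -0.26 to 0.20.

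Of the conjugation enzymes, Atg3 rose and 5 did not pass. Atg3 encodes the conjugating enzyme that hands Atg8 proteins to phosphatidylethanolamine. Vehicle arrays read 8.62, 8.71 and 8.49, and icilin arrays 8.98, 8.97 and 8.89. All icilin arrays were higher, by 0.34 ± 0.08 (1.27-fold, adjusted p = 0.0733). The call ended with any 1 of the 6 arrays left out (0.28 to 0.39, adjusted p 0.106 to 0.207). Atg7, the activating enzyme upstream of it, had the same mean of 6.95 in both groups. Atg5, Atg12 and Atg16l1 encode the complex that directs lipidation, and they stood at 0.19 (interval -0.02 to 0.40), -0.12 and -0.07. The protease gene Atg4b, whose product primes and recycles Atg8 proteins, had a mean of 7.81 in each group.

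In the Atg8 family 1 of 5 genes fell. Map1lc3b, which encodes the LC3 protein used most widely as an autophagosome marker, read 8.71, 9.03 and 8.77 with vehicle and 8.34, 8.26 and 8.51 with icilin. The groups did not overlap, with vehicle replicate 2 the highest, and the change was -0.47 ± 0.11 (1.38-fold lower, adjusted p = 0.0808). That call also ended with any 1 of the 6 arrays left out (-0.54 to -0.37, adjusted p 0.104 to 0.220). Gabarap read 10.21, 10.15 and 10.11 with vehicle and 10.06, 10.08 and 10.04 with icilin, a change of -0.09 ± 0.06 that did not pass, and its second, dimmer probe set differed by -0.33 ± 0.14. Map1lc3a (-0.08), Gabarapl1 (0.14) and Gabarapl2 (0.02) had overlapping groups. No transcript level tells how much LC3 protein was lipidated.

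Of the 3 measured receptors, which hold an Atg8-binding motif and tie cargo or membranes to the autophagosome, 1 fell and the other two did not pass. Calcoco1, a receptor for parts of the endoplasmic reticulum, read 7.81, 7.89 and 7.93 with vehicle and 7.39, 7.32 and 7.52 with icilin. All icilin arrays were lower, with a change of -0.47 ± 0.08 (1.38-fold lower, adjusted p = 0.0245), and the call held with each of the 6 arrays left out (-0.52 to -0.42). Sqstm1 encodes p62, the receptor for ubiquitinated cargo and itself degraded by autophagy. It read 9.16, 9.07 and 9.08 with vehicle and 9.33, 9.29 and 9.42 with icilin. The icilin arrays were all higher, and the change of 0.24 ± 0.07 (interval 0.08 to 0.40) missed the threshold at an adjusted p of 0.132. Sqstm1 passed where limma was fitted with an intensity trend and robust variances (adjusted p = 0.00926) and without dim genes (0.0299). It did not pass with the replicate number as a block (0.248) or with any 1 of the 6 arrays left out (0.164 to 0.306). Nbr1, a receptor that works with p62, differed by -0.16 ± 0.07 (interval -0.33 to 0.01), also without overlap.

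**Figure D3:**
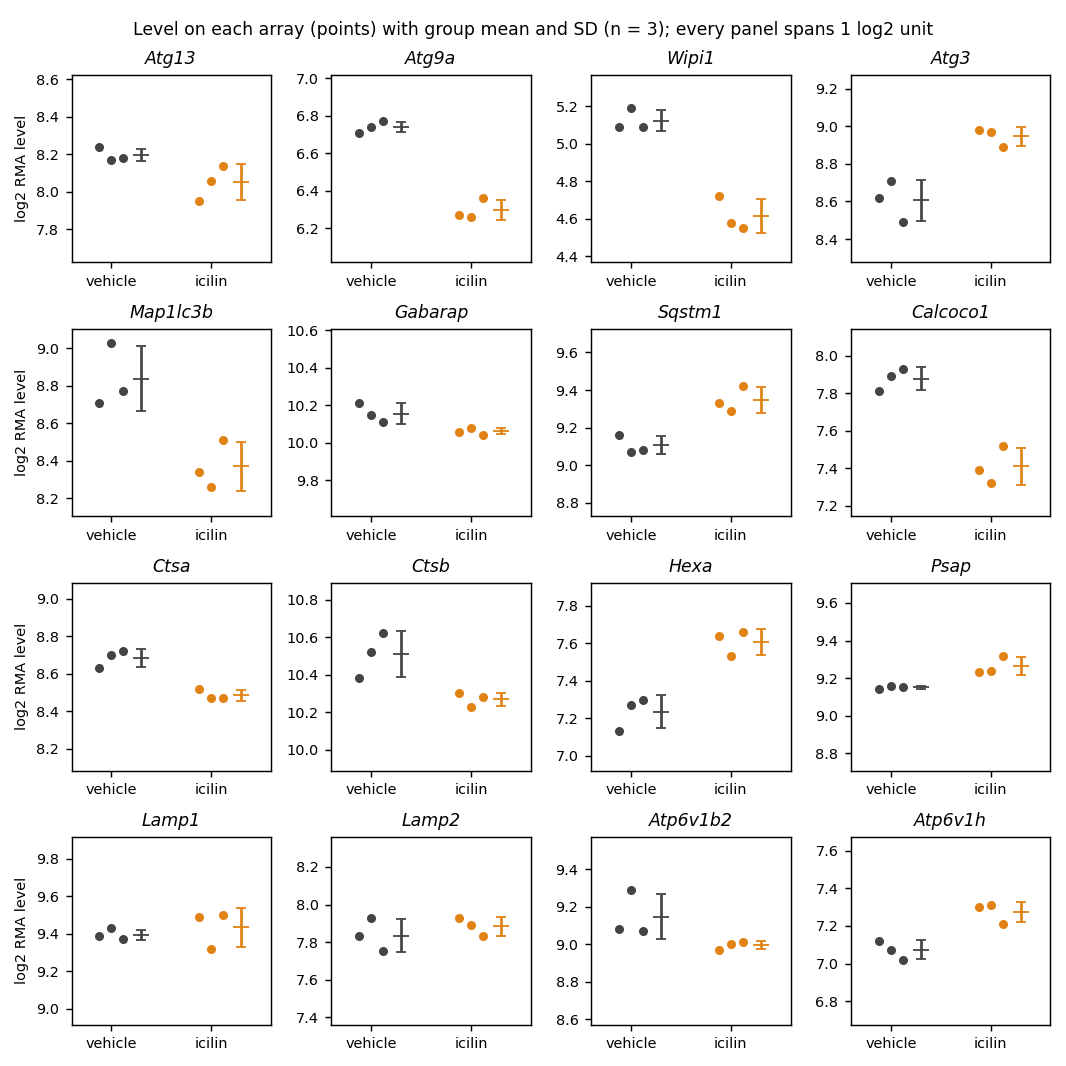
Log2 RMA level (y axis) on each vehicle (grey) and icilin (orange) array for 16 members, with the group mean and SD (n = 3) beside the points; every panel spans 1 log2 unit. Groups are well apart in Atg9a, Wipi1 and Calcoco1, closer in Atg3, Map1lc3b and Hexa, and mixed in Lamp1 and Lamp2.

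None of the 7 lysosomal protease genes passed (limma; SAM called 0; 1 higher and 2 lower had a p under 0.05 before adjustment). Ctsb encodes the abundant cysteine protease cathepsin B. Its levels were 10.38, 10.52 and 10.62 with vehicle and 10.30, 10.23 and 10.28 with icilin. The icilin arrays were lower without overlap, and the change was -0.24 ± 0.08 (interval -0.43 to -0.05, adjusted p = 0.192). Ctsa, which encodes the carboxypeptidase that also protects other lysosomal enzymes, read 8.63, 8.70 and 8.72 with vehicle and 8.52, 8.47 and 8.47 with icilin, a change of -0.20 ± 0.06 (adjusted p = 0.171). In the opposite direction, Ctsc, which encodes the peptidase that activates granzymes, differed by 0.17 ± 0.06 (interval 0.03 to 0.31, adjusted p = 0.209). These 3 passed where the fit used an intensity trend and robust variances (adjusted p 0.0187 to 0.0240) and without dim genes (0.0400 to 0.0585). They did not pass with the replicate number as a block (limma adjusted p 0.292 to 0.331) or with any 1 of the 6 arrays left out (0.122 to 0.396). Ctsd (0.00), Ctsl (0.02), Ctsh (0.06) and Ctsz (-0.05) had overlapping groups, and Ctsh was dimmer than the median gene.

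Hexa was the 1 hydrolase gene of the list that rose. It encodes the alpha chain of beta-hexosaminidase A, which trims GM2 ganglioside. Vehicle arrays read 7.13, 7.27 and 7.30 and icilin arrays 7.64, 7.53 and 7.66. The lowest icilin array lay above the highest vehicle array, and the change was 0.37 ± 0.07 (1.30-fold, adjusted p = 0.0481). The call ended with any array other than icilin replicate 2 left out (0.32 to 0.41, adjusted p 0.101 to 0.158). Psap, the precursor of the saposins that present lipids to such enzymes, read 9.14, 9.16 and 9.15 with vehicle and 9.23, 9.24 and 9.32 with icilin, a change of 0.11 (interval -0.03 to 0.26) that did not pass. The alpha-glucosidase gene Gaa (0.07) and the beta-glucuronidase gene Gusb (0.08) had overlapping groups.

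No gene for the lysosomal membrane or the proton pump passed in the fit as reported (limma; 0 of 3 and 0 of 8, with 0 and 1 at p under 0.05 before adjustment; SAM called 0). The main membrane glycoprotein gene Lamp1 read 9.39, 9.43 and 9.37 with vehicle and 9.49, 9.32 and 9.50 with icilin, and Lamp2 read 7.83, 7.93 and 7.75 against 7.93, 7.89 and 7.83. Groups overlapped for both, with changes of 0.04 (interval -0.13 to 0.21) and 0.05 (interval -0.12 to 0.22). The tetraspanin gene Cd63 was dim, at brightness percentile 25.2 of all genes, and its interval of -0.27 to 0.39 was the widest of any member. In the pump, Atp6v1h, which encodes a regulatory subunit of the ATP-splitting sector, read 7.12, 7.07 and 7.02 with vehicle and 7.30, 7.31 and 7.21 with icilin. It was higher on every icilin array, by 0.20 ± 0.07 (interval 0.05 to 0.35), short of the threshold (limma adjusted p = 0.184). Atp6v1h passed with an intensity trend and robust variances (0.0710) and without dim genes (0.0471). It did not pass with the replicate number as a block (0.282) or with any 1 of the 6 arrays left out (0.212 to 0.364). Atp6v1b2, which encodes a subunit of the same sector's core, read 9.08, 9.29 and 9.07 with vehicle and 8.97, 9.0 and 9.01 with icilin (-0.15, interval -0.34 to 0.03); its second, dimmer probe set differed by 0.08. The other 6 subunit genes lay between -0.12 (Atp6v0d1) and 0.19 (Atp6v0a1), with Atp6v1a at -0.01, Atp6v0a2 at 0.01, and Atp6v1c1 and Atp6v1d both at 0.04.

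Other genes of the same pathways were measured from lists set up by function, again with earlier results of these data known. Of 161 listed, 151 were found, 13 passed (8.61%), 3 higher and 10 lower, and limma called 4, all of them lower. SAM called 5, these 4 lower genes and Rragb, which was higher. Over all genes limma called 1.40%, SAM called 1.52%, and 5.28% passed. Of the genes brighter than the median gene, as 137 of the 151 were, 9.02% passed. By list, the share that passed ran from 0.00% (other pump genes) to 13.3% (other hydrolases). The median log2 fold change over the 151 genes was 0.00. Bnip3, a mitophagy receptor known as a target of the hypoxia response, was the 1 gene of 12 other receptor and mitophagy genes that passed. It read 8.60, 8.68 and 8.78 with vehicle and 7.70, 7.66 and 7.72 with icilin (-0.99 ± 0.07, adjusted p = 0.00109). Rragd encodes a GTPase that brings the growth kinase mTORC1 to the lysosome and is itself known as a target of TFEB. It read 6.82, 6.90 and 6.81 with vehicle and 5.98, 6.12 and 6.29 with icilin (-0.72 ± 0.09, adjusted p = 0.00970). Slc15a3, a lysosomal transporter of histidine and peptides, stood at 5.58, 5.50 and 5.55 with vehicle and at 5.01, 4.69 and 4.68 with icilin (-0.75 ± 0.10, adjusted p = 0.0127).

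The factors known to drive lysosomal genes did not pass. Tfeb read 4.65, 4.70 and 4.44 with vehicle and 4.83, 4.62 and 4.68 with icilin (0.11, interval -0.11 to 0.34). Tfe3 stood at 0.07 (interval -0.07 to 0.21) and Mitf at 0.11 (interval -0.10 to 0.33). These factors are controlled largely by their place in the cell, which an array does not measure. Of the 25 MiT factor and nutrient sensing genes, Rragd and the autophagy regulator gene Foxo3 (-0.31) fell and Rheb, which encodes the GTPase that activates mTORC1 on the lysosome, rose (0.49 ± 0.08, adjusted p = 0.0216). Rragb, which encodes another GTPase of the Rag family, read 4.19, 4.4 and 4.81 with vehicle and 4.92, 5.16 and 5.08 with icilin. All icilin arrays were higher, by 0.59 ± 0.16, and SAM called it, but limma's adjusted p of 0.117 did not pass. Rragb passed with an intensity trend and robust variances (0.0294), without dim genes (0.0356), with arrays centred on their median (0.0983) and without vehicle replicate 3. It did not pass with the replicate number as a block (0.121). Foxo3, Rheb and Rragb, like Vmp1, Atg10, Acp5, Gm2a, Arsb and Sort1 further on, were named after their values were seen. The call of Foxo3 ended with any 1 of the 6 arrays left out (-0.34 to -0.25, adjusted p 0.142 to 0.235) or with arrays centred on their median (-0.28), whereas that of Rheb held in all of these.

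In the rest of the autophagy machinery, 3 of 27 genes passed. Rubcn, which encodes a brake on the lipid kinase complex, fell (-0.31 ± 0.06, adjusted p = 0.0476), the membrane remodelling gene Vmp1 stood at -0.54 ± 0.12 (adjusted p = 0.0676), and Atg10 rose by 0.36 ± 0.08 (adjusted p = 0.0788). Atg10 encodes the conjugating enzyme for Atg12, as Atg3 does for the Atg8 proteins. All 3 calls ended with 5 or more of the 6 arrays left out in turn (adjusted p up to 0.159, 0.204 and 0.214), Rubcn keeping its call without vehicle replicate 1 and Vmp1 without vehicle replicate 3. Of the other lysosomal hydrolases, the cytotoxic lymphocyte protease gene Ctsw (-0.59 ± 0.08, adjusted p = 0.0136), the phosphatase gene Acp5 (-0.38 ± 0.06) and Gm2a (-0.34 ± 0.07, adjusted p = 0.0522) fell and the sulfatase gene Arsb rose (0.29 ± 0.06, adjusted p = 0.0541), of 30 measured. Ctsw dropped below 1.5-fold without icilin replicate 2 (-0.54), without vehicle replicate 2 (-0.53) or with arrays centred on their median (-0.56). Gm2a encodes the activator protein that lifts GM2 ganglioside out of the membrane for the product of Hexa, so these partner genes had changes of opposite sign, -0.34 and 0.37. The calls of Gm2a and Arsb ended with any 1 of the 6 arrays left out (adjusted p 0.111 to 0.168 and 0.125 to 0.176), that of Arsb also over all its probe sets (0.25). Of 34 other membrane and sorting genes, Slc15a3 and the sorting receptor gene Sort1 (-0.33 ± 0.08, adjusted p = 0.0749) fell; Sort1 kept its call in 1 of 6 leave-outs, without vehicle replicate 1, and did not pass over all its probe sets (-0.08) or with quantile normalization. For 23 other pump genes limma and SAM called 0, none passed, and before adjustment 1 higher and 4 lower genes had a p under 0.05; Atp6v1g1 came closest (0.37 ± 0.09, adjusted p = 0.105). Atp6v1g1 passed with arrays centred on their median (0.0899), with an intensity trend and robust variances (0.00907), without dim genes (0.0271) and without vehicle replicate 1 (0.0878), while the mean of all its probe sets was 0.08 (adjusted p = 0.769). It did not pass with the replicate number as a block (limma adjusted p = 0.164).

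**Figure D4:**
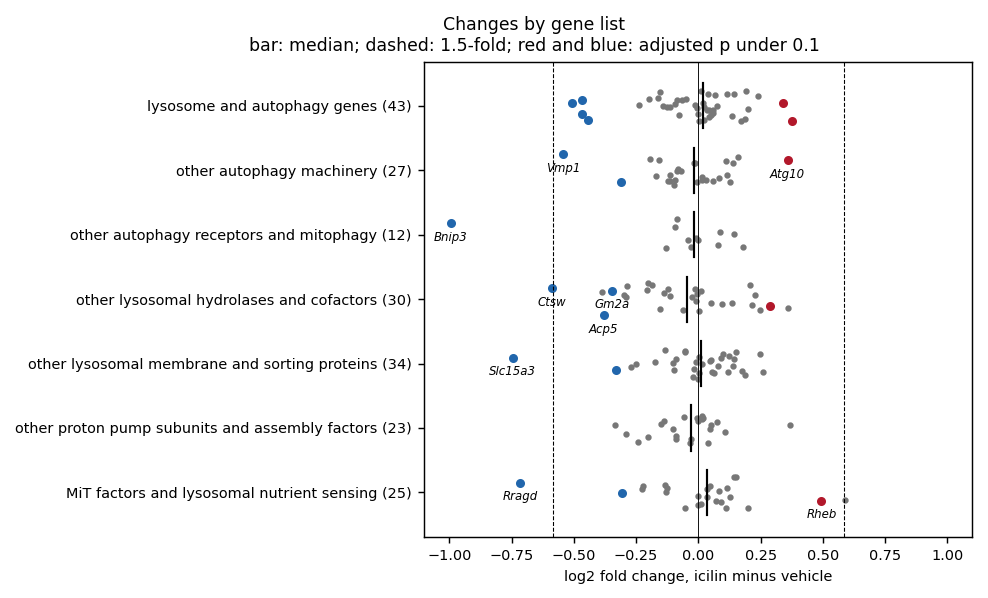
Log2 fold change, icilin minus vehicle (x axis), of each gene in the lysosome and autophagy list and in 6 lists of related genes (rows, number measured in brackets); black bars are list medians, dashed lines mark 1.5-fold, and red or blue points passed an adjusted p under 0.1. Medians lie between -0.04 and 0.03, and the 4 points at or past the left dashed line are Bnip3, Slc15a3, Rragd and Ctsw; Rragb (0.59) reaches the right one and did not pass.

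Lysosomal genes are abundant in phagocytes, so markers of other cells were read beside them. All 10 measured T cell markers were brighter than the median gene, Cd3e and Cd4 among them, and 1 passed higher (Cd28, 0.34) and 1 lower (Zap70, -0.33), whereas 18 of 23 myeloid markers were dimmer, with Lyz2 at brightness percentile 24.5. The summed linear signal of the myeloid list was 603 to 609 on icilin arrays and 545 to 637 on vehicle arrays, and 1 of 23, Mpeg1, passed (0.75 ± 0.16, higher). Of the 23 myeloid markers 15 were above 0 and 8 below. Without overlap but not passing, Itgam was higher (0.21), and Csf1r (-0.26) and the lysosomal marker Cd68 (-0.26, brightness percentile 65.8) were lower. Their limma adjusted p was 0.151, 0.216 and 0.239. The natural killer and CD8 list, the cells in which Ctsw is best known, summed to 267 to 299 on icilin and 290 to 297 on vehicle arrays. Of its 11 genes 4 were above 0 and 7 below, and 3 passed: Crtam (-0.92) and Klrd1 (-0.27) fell and Eomes rose (0.67). The B cell list was higher with icilin, at 269 to 275 against 249 to 257, and without Ms4a1, the 1 of 12 that passed (1.01, higher), it stood at 235 to 239 against 230 to 242. Ebf1 of that list differed by -0.73, called lower by SAM but not by limma (adjusted p = 0.128). The dendritic cell list was lower, at 1527 to 1686 against 2094 to 2304, with 3 of 11 genes above 0 and 8 below. H2-Ab1 fell (-1.22) and Batf3 rose (0.47, adjusted p = 0.0239), and without H2-Ab1 the list stood at 1057 to 1169 against 1011 to 1060. For all these marker counts, 5.28% of all genes passed, and 9.02% of the genes brighter than the median gene. The part of such cells in the members' changes was not tested.

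**Figure D5:**
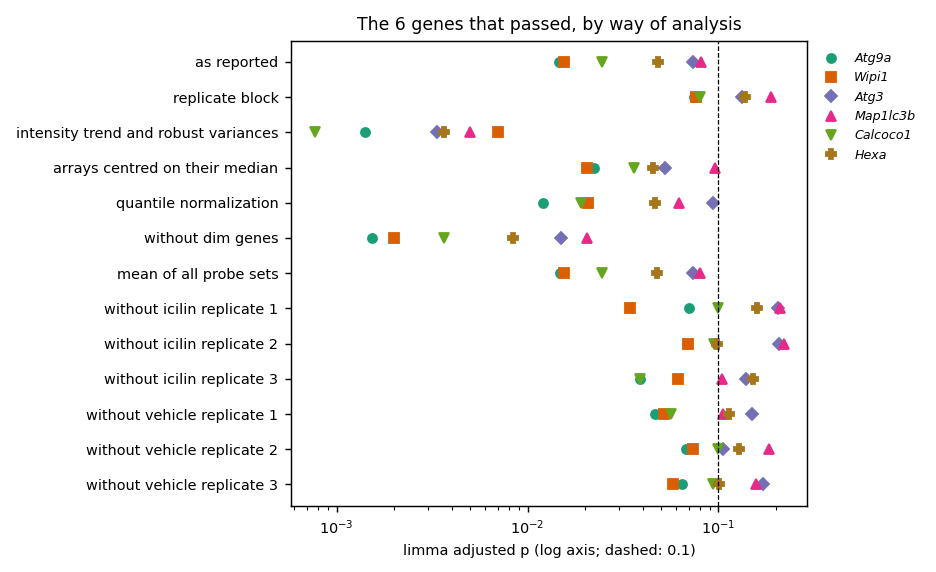
Limma adjusted p (x axis, log scale) of the 6 genes that passed, under the analysis as reported and 12 other ways of analysis (rows); the dashed line marks 0.1. Atg9a, Wipi1 and Calcoco1 stay at or left of the line in every row, while Atg3, Map1lc3b and Hexa cross it with the replicate block and with most single arrays left out.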

How the data were processed

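Gene expression was measured in 6 arrays, 3 per group. The deposited log2 values were made by the authors with Robust Multi-Array Average (RMA), per the series design text and the submitters' processing notes; RMA makes array distributions alike, so a change shared by most genes would not show, and log2 changes of dim genes are compressed. Each sample gave 0.25 µg of RNA (integrity number 8 or higher). Array medians were 4.24 to 4.30, and the number of arrays limits the precision (median SE of a member's log2 fold change 0.07). No batch is given in the sources used here.

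Of 41345 probe sets, 23521 had 1 symbol in the array annotation, 1814 several and 16010 none. The first kind was used, keeping the brightest probe set of each gene. All 22180 genes were fitted with limma 3.58.1 in R 4.3.3 (lmFit, eBayes), icilin minus vehicle, two-sided, with Benjamini-Hochberg adjustment over all of them. The study's own test, significance analysis of microarrays (SAM), was written anew with 20 permutations. Both were also run on simulated data with independent arrays, and the outcome is not given here. P-values measure the spread between these samples. Members and lists were chosen with earlier results of these data known. Array values are given for members that passed, and for the smallest p and the brightest member of each role. They are also given for members whose probe sets differ in sign. Of other lists, array values are given only for Bnip3, Rragd, Slc15a3, Tfeb and Rragb. Brightness percentiles rank the 22180 genes, each by the mean log2 level of its kept probe set over the 6 arrays. No protein sequences were used here. Alternatives were a replicate block, an intensity trend with robust variances, median centring, quantile normalization, leaving out dim genes, averaging probe sets and leaving out each array.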

Additional observations from a re-analysis of the deposited data

How the results depend on the processing

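The count of members past 1.5-fold and an adjusted p under 0.1 was 0 in the reported fit, in SAM, in the 6 leave-outs and in the 6 other refits; with an adjusted p under 0.05 and no fold limit, 4 members passed, and 734 genes in place of 311. The 6 members past an adjusted p of 0.1 became 11 with an intensity trend and robust variances and 11 without dim genes, and 3 to 4 with 1 array left out. With the replicate block, 3 members passed (Atg9a, Wipi1 and Calcoco1), and Atg3, Map1lc3b and Hexa did not (adjusted p 0.133, 0.188 and 0.138). Of the 13 related genes that passed, the block also ended the calls of Rubcn, Vmp1, Atg10, Foxo3, Gm2a, Arsb and Sort1 (adjusted p 0.161, 0.155, 0.193, 0.153, 0.161, 0.172 and 0.130). Same-numbered arrays did not deviate together (r of -0.01, -0.01 and -0.02 over all genes), and no icilin array correlated best with its own number. All pairs of arrays had r near 0, so this check cannot tell whether same-numbered arrays share a mouse. The replicate numbers are not said to name mice, so the block was kept as an alternative. Centring, quantile normalization and averaged probe sets each left 6. The median over the members was 0.00 to 0.04 in the 12 refits. No named gene that passed changed its direction. In the leave-outs, 10 of the 43 members turned sign, with changes between -0.06 and 0.20. Each refit without 1 array has fewer samples. The cause of the higher or lower counts was not tested.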

Other observations

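Over all tested genes, the promoter letters were set beside the changes. Of the 244 tested genes with TCACGTGA in their RefSeq window, 3 rose and 9 fell (4.92%), with a median log2 fold change of 0.02. Among the 16674 tested genes whose windows lack it, 5.33% passed, and their median was 0.01. The full CLEAR element of 10 letters stood in 84 tested genes, of which 3 passed, each lower. The shorter CACGTG stood in 1559, of which 37 rose and 55 fell (5.9%), with a median of 0.02, against 5.26% of the 15359 without it. These are counts of letters in windows near the transcript start, and the differences between the shares were not tested.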
